A study of Mus musculus with 6 samples.

Results

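The latrophilins (Adgrl1, Adgrl2 and Adgrl3), the brain-specific angiogenesis inhibitors or BAI receptors (Adgrb1, Adgrb2 and Adgrb3) and the FLRT ligands (Flrt1, Flrt2 and Flrt3) were followed in the hippocampus of Prmt9 wild-type (WT) and knockout (KO) mice. These 9 genes were taken by symbol from the 36008 genes of the gene table, and their 107 annotated transcripts from the 118783 transcripts quantified. Every gene and every transcript on the list was found. The list was drawn up with earlier WT and KO gene levels and transcript shares of these libraries in view, so the genotype differences of the 9 genes are a description of the mice and are not offered as a test.

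Each genotype was represented by 3 hippocampi of female mice aged 2 weeks on the B6J strain, and the controls were littermates of the KO mice. The KO is a whole-body deletion of the floxed exon 5 of Prmt9, made with CMV-Cre, and is therefore not limited to neurons. Poly(A)-selected RNA was sequenced from whole hippocampus, so fewer cells of a type and less RNA per cell cannot be told apart. The labels number the libraries 1 to 3 in each genotype, and these numbers are kept here. Prmt9, the arginine methyltransferase removed by the design, was measured at 11.8, 15.2 and 14.96 TPM (transcripts per 1e6, a level set per transcript length) in WT replicates 1 to 3 and at 3.93, 4.61 and 4.67 TPM in the KO. The KO mean was 31.5% of the WT mean, with no overlap between the genotypes. edgeR's quasi-likelihood test over all genes gave Prmt9 an adjusted p of 0.0327.

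Libraries held 194098391 to 286771677 estimated counts, and the 9 genes together took 353567 to 553130 of them. WT replicate 1 and, less far, KO replicate 1 stood apart from the other 4 libraries. On the first principal component of gene levels, which carried 67.4% of the variance, they lay at -110.3 and -30.6, against 31.5 to 37.8 for the rest. Transcripts with no count made up 37.4% of WT replicate 1 and 22.8% to 24.8% of the other libraries. Weighted by counts, the mean transcript length was 3427 and 3653 bases in WT and KO replicate 1, against 3967 to 4016 bases elsewhere. Transcripts under 600 bases took 21.7% and 18.2% of TPM there, against 16.2% to 16.7% elsewhere. The summed level of the oligodendrocyte lineage markers was 1750 TPM in WT replicate 1 and 930 TPM in KO replicate 1, against 6703 to 9569 TPM elsewhere. Both mice numbered 1 lay outside the range of the other mice on 7 of 11 marker lists, lower on 6 and higher on 1. Excitatory neuron markers summed to 1698 and 1793 TPM in WT and KO replicate 1, against 2719 to 2898 TPM elsewhere, and those of dentate granule cells to 89.9 and 77.6 TPM, against 136 to 151 TPM. Endothelial and mural cell markers summed to 187 and 181 TPM, against 120 to 139 TPM. All the listed markers of neurons, glia, vessels, choroid plexus and blood reached at least 1 TPM in every library. The CA3 pyramidal cell list (Grik4, Cdh24, Bok and Iyd) was the list whose summed levels did not overlap between genotypes, at 160 to 190 TPM in WT and 141 to 154 TPM in KO. Its part in the values given here was not tested.

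Latrophilins and BAI receptors are adhesion G protein-coupled receptors: a long extracellular region that binds partners on a neighbouring cell is joined to a membrane-spanning region that signals through G proteins. Latrophilins sit at synapses and bind teneurins and FLRT proteins, while BAI receptors carry thrombospondin repeats and bind C1q-like proteins and Nogo receptors. FLRT proteins are membrane proteins with leucine-rich repeats that bind latrophilins and also UNC5 receptors, and through these contacts act in synapse formation and axon guidance. In the hippocampus these families are known for setting the input specificity and number of excitatory synapses.

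The receptors are long, many-exon genes and the ligands are compact. The longest coding sequences of the 6 receptors held 4461 to 4746 bases in 22 to 30 coding exons, whereas the coding sequence of each FLRT ligand (1947 to 2022 bases) lay in 1 exon. Within a family, coding sequences aligned with 58.0% to 64.0% identity among the latrophilins, 55.6% to 56.2% among the BAI receptors and 57.1% to 59.6% among the FLRT ligands. Cassette exons, which a transcript includes or skips as a whole, were found in the receptors and not in the ligands, and several recur at the same place in related genes. The shortest are shown first because their inclusion set Adgrl1 apart from the other latrophilins. They begin in codon 132 of Adgrl1, 133 of Adgrl2 and 195 of Adgrl3, at a place known as an alternatively spliced joint between the lectin-like and olfactomedin-like domains that bind FLRT proteins and teneurins. The sequences are from the GENCODE M21 transcripts (GRCm38), 5′ to 3′ along the mRNA, with the cassette exon in capitals and 15 bases of the neighbouring exons in lower case.
Adgrl1, 15 bases, chr8:83926262-83926276, plus strand: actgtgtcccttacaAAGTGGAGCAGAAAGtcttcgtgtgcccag
Adgrl2, 12 bases, chr3:148860427-148860438, minus strand: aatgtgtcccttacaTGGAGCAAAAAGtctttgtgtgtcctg
Adgrl3, 15 bases, chr5:81509724-81509738, plus strand: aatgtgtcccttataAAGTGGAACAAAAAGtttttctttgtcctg
The exons of Adgrl1 and Adgrl3 were identical at 13 of 15 bases (86.7%), and the shorter Adgrl2 exon matched each of them at 11 of 15 aligned bases (73.3%).

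Longer exons also had counterparts. A 27-base and a 39-base cassette exon of Adgrl2 matched exons of the same lengths in Adgrl3, and they are shown because both genes include them at intermediate levels.
Adgrl2, 27 bases, chr3:148827212-148827238, minus strand: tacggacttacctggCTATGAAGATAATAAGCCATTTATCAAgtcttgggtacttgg
Adgrl3, 27 bases, chr5:81757986-81758012, plus strand: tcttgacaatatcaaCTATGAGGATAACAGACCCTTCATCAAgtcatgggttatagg
Adgrl2, 39 bases, chr3:148849766-148849804, minus strand: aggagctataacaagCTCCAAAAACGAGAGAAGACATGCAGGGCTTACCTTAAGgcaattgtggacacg
Adgrl3, 39 bases, chr5:81663386-81663424, plus strand: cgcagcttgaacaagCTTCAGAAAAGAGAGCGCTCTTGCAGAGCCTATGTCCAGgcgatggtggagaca
The 27-base pair was identical at 21 of 27 bases (77.8%) and the 39-base pair at 25 of 39 (64.1%). Each of the BAI genes held a 99-base cassette exon directly after an exon of 86 bases, and these are shown because their inclusion ran from low to nearly complete across the family.
Adgrb1, 99 bases, chr15:74577395-74577493, plus strand: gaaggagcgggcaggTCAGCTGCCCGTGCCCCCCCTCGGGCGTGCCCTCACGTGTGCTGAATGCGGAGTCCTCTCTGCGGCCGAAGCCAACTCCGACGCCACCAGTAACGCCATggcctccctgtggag
Adgrb2, 99 bases, chr4:130014935-130015033, plus strand: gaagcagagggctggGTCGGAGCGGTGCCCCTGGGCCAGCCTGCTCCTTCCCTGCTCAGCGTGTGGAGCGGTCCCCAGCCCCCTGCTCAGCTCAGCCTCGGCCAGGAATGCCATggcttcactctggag
Adgrb3, 99 bases, chr1:25112177-25112275, minus strand: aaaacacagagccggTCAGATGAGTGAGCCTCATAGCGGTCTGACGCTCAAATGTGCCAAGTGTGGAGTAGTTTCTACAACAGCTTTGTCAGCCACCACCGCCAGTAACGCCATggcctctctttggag
The aligned identity of these exons was 61.6% between Adgrb1 and Adgrb2, 61.1% between Adgrb1 and Adgrb3 and 59.8% between Adgrb2 and Adgrb3. In Adgrb1 the exon was annotated in a single transcript, Adgrb1-208, which has no annotated coding sequence.

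Among the receptors, the BAI family was the most abundant at the RNA level and the FLRT ligands were the least. Summed over each family, WT hippocampus held 684 ± 162 TPM of BAI receptors, 234 ± 41.5 TPM of latrophilins and 30.5 ± 6.69 TPM of FLRT ligands (mean ± SD, n = 3), and KO hippocampus held 622 ± 90.9, 238 ± 6.86 and 32.6 ± 2.24 TPM. Because TPM is set per transcript length, these levels can be compared between genes, as sums over all annotated transcripts, short and non-coding ones included. Transcripts with at least 4000 coding bases held a WT mean of 4.04% of Adgrb1 and 79.0% of Adgrl1. The levels therefore do not rank the mRNA that encodes whole receptors. Among the 15107 genes with at least 1 TPM in WT, 97.1% had a lower level than Adgrb2 and 25.9% a lower level than Flrt1, the highest and lowest of the 9.

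**Figure D1:**
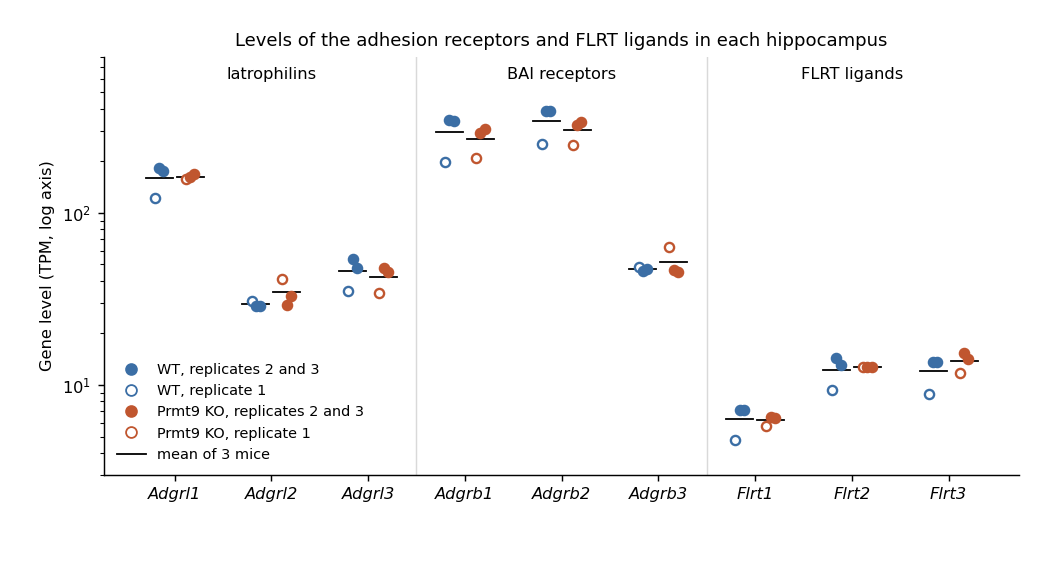
Gene level in TPM on a log axis for each of the 9 genes, with 1 point per hippocampus (blue WT, orange Prmt9 KO, open circles replicate 1) and a line at the mean of 3 mice. Adgrb2 and Adgrb1 sit highest and Flrt1 lowest in every mouse, and the open circles lie apart from the filled ones for most genes.

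The plot of gene levels shows the order within each family. Adgrl1, the most abundant latrophilin, was measured at 122, 183 and 174 TPM in WT replicates 1 to 3 and at 157, 160 and 168 TPM in KO replicates 1 to 3. Adgrl3, which binds FLRT3 and teneurins with high affinity, stood at 35.2, 54.0 and 47.7 TPM in WT and 34.3, 47.7 and 45.1 TPM in KO. Adgrl2, the least abundant latrophilin in 5 of 6 mice, stood at 30.5, 28.7 and 28.6 TPM in WT and 41.4, 29.1 and 32.7 TPM in KO. In each of these genes the WT and KO values overlapped, and replicate 1 of a genotype gave its lowest or highest value. Adgrl1 made up 67.8% ± 2.47 of latrophilin TPM in WT and 67.8% ± 0.491 in KO.

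Adgrb2 was the most abundant gene of the list, at 250, 387 and 389 TPM in WT and 247, 322 and 338 TPM in KO. Adgrb1, a receptor for the engulfment of dying cells as well as a postsynaptic protein, stood at 198, 345 and 341 TPM in WT and 208, 290 and 305 TPM in KO. Adgrb3, the receptor of C1q-like proteins, stood lower, at 48.5, 46.0 and 46.9 TPM in WT and 63.2, 46.7 and 45.2 TPM in KO. Adgrb1 and Adgrb2 were lowest in the mice numbered 1 of both genotypes, where the excitatory neuron and oligodendrocyte lineage markers were also lowest, whereas Adgrb3 was highest there. The part of these cell types in the levels was not tested. Adgrb2 supplied 50.1% ± 0.295 of BAI receptor TPM in WT and 48.6% ± 0.751 in KO, and Adgrb3 supplied 7.25% ± 2.20 and 8.61% ± 3.12.

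Summed over all transcripts of a gene, the ligands were present at lower levels than any receptor. These sums do not compare mRNA for whole proteins, since transcripts with at least 4000 coding bases held only 4.04% of Adgrb1 and 23.3% of Adgrl3 in WT. Flrt2 was measured at 9.30, 14.3 and 13.1 TPM in WT and at 12.7, 12.7 and 12.6 TPM in KO. Flrt3, a known ligand of latrophilins, was measured at 8.81, 13.6 and 13.5 TPM in WT and at 11.6, 15.3 and 14.2 TPM in KO. Flrt1 was measured at 4.75, 7.10 and 7.12 TPM in WT and at 5.78, 6.47 and 6.39 TPM in KO. WT replicate 1 was the lowest mouse for all 3 ligands, and the genotypes overlapped for each. From highest to lowest the WT means ran Adgrb2, Adgrb1, Adgrl1, Adgrb3, Adgrl3, Adgrl2, Flrt2, Flrt3 and Flrt1. The WT ranges of Adgrb2 and Adgrb1, of Adgrb3 and Adgrl3, and of Flrt2 and Flrt3 overlapped, although Adgrb2 exceeded Adgrb1 within each of the 6 mice. The other neighbours in that order did not overlap in WT.

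Loss of Prmt9 went with small differences in the levels of these 9 genes, all within a log2 fold change of -0.19 to 0.20. A gene was called where edgeR, fitted over 20335 genes, gave more than a 1.5-fold change and an adjusted p below 0.01. By that rule 0 of the 9 were called, and the background was 0.00% of genes. Prmt9 itself, with an adjusted p of 0.0327 in edgeR, was not called by it either. The count at an unadjusted p below 0.05 was also 0 of 9, against 1.23% of all genes. In the edgeR fit blocked on replicate, 1 of 9 had such a p, against 5.73% of all genes. It was Adgrb2, with an adjusted p of 0.791 in edgeR. Their median log2 fold change was 0.01, beside -0.01 for all genes tested. CPM are counts per 1e6, divided by library size after edgeR's TMM scaling between libraries and not by transcript length. On the CPM scale Adgrb2 had the lowest log2 fold change of KO over WT at -0.19 ± 0.11 (SE). Its levels were 585, 663 and 640 CPM in WT and 495, 579 and 580 CPM in KO. Adgrb2 was thus the gene whose CPM did not overlap between genotypes (1 of 9, where 7.01% of all genes did not overlap), though the highest KO value and the lowest WT value were only 580 and 585 CPM. On the TPM scale 0 of 9 were free of overlap, against 6.68% of genes, and without both mice numbered 1 this held for 7 of 9, against 48.3%.

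**Figure D2:**
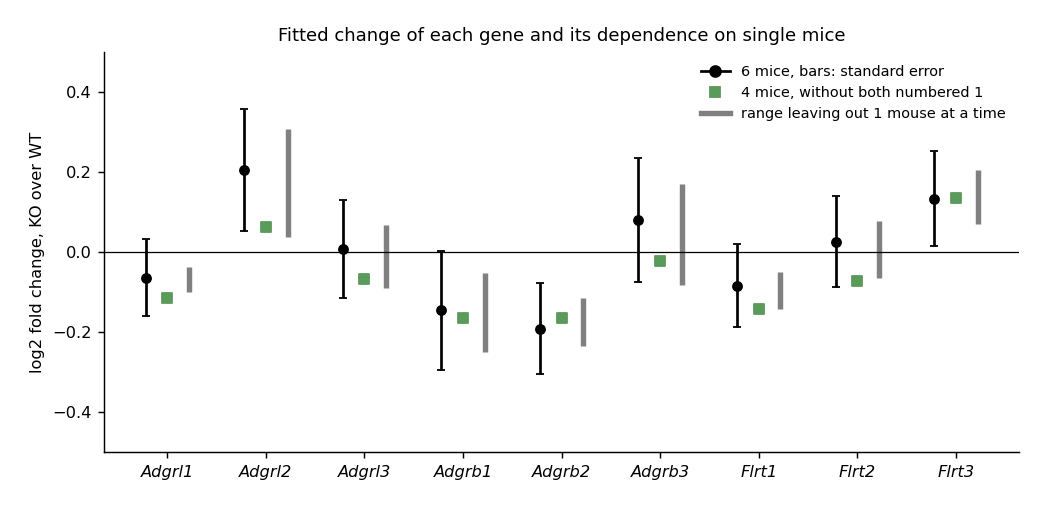
Log2 fold change of KO over WT on the CPM scale for each gene, as fitted on 6 mice (black, bars are standard errors), on the 4 mice not numbered 1 (green squares) and as the range over fits that leave out 1 mouse at a time (grey). Adgrb1, Adgrb2, Adgrl1 and Flrt1 stay below 0 and Adgrl2 and Flrt3 above 0 in these fits (on the TPM scale in limma Adgrl1 turned to 0.04), while Adgrl3, Adgrb3 and Flrt2 cross 0.

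Adgrb1 followed Adgrb2, at 391, 510 and 495 CPM in WT and 369, 445 and 448 CPM in KO, with a log2 fold change of -0.15 ± 0.15 (SE). The labels do not say that mice of the same number were paired. Set side by side by number, both genes were lower in the KO. The log2 ratios of KO over WT were -0.24, -0.19 and -0.14 for Adgrb2 and -0.08, -0.20 and -0.14 for Adgrb1. Adgrl2 gave the highest log2 fold change, 0.20 ± 0.15 (SE), from 65.3, 61.4 and 62.5 CPM in WT and 89.2, 62.3 and 66.6 CPM in KO. KO replicate 1 set that value, and without it the fold change of Adgrl2 was 0.04. Flrt3 stood at 23.1, 27.1 and 26.6 CPM in WT and 25.4, 30.7 and 28.01 CPM in KO, higher in the KO at each number. Its log2 fold change was 0.13 ± 0.12 (SE). The remaining 5 genes had log2 fold changes from -0.08 to 0.08, each with a standard error larger than its size. On the scale of log2(TPM + 1) in limma the sign of Adgrl1 turned to 0.04, from -0.06, and that of Adgrl3 to -0.10, from 0.01.

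Without both mice numbered 1, the 2 mice left in each genotype lay closer together. The CPM of 6 of 9 genes then did not overlap between genotypes, where 48.9% of all genes did not, and an unadjusted p below 0.05 was given to 5 of 9 (Adgrb1, Adgrb2, Adgrl1, Flrt1 and Flrt3), where 16.4% of all genes had such a p. With replicates 1 set apart by a batch term in the fit, 3 of 9 (Adgrb1, Adgrb2 and Flrt3) had an unadjusted p below 0.05, against 9.71% of genes. The lowest adjusted p of any of the 9 genes under any setting of edgeR, DESeq2 or limma was 0.144.

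The genes differed widely in the transcripts that carried their level. Of the 107 annotated transcripts, 28 made up at least 10% of their gene's TPM in a genotype (the single transcript of Flrt1 is not counted) and 4 had no count in any library. Protein-coding transcripts carried nearly all TPM of the FLRT ligands and 84.5% to 94.5% of that of Adgrl1 and Adgrl2 in single mice, but only 41.1% to 46.1% of that of Adgrb1. Nonsense-mediated decay transcripts, which carry a premature stop and are degraded, took 20.3% to 25.9% of Adgrb1. Retained-intron transcripts took 33.1% to 39.5% of Adgrb2.

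**Figure D3:**
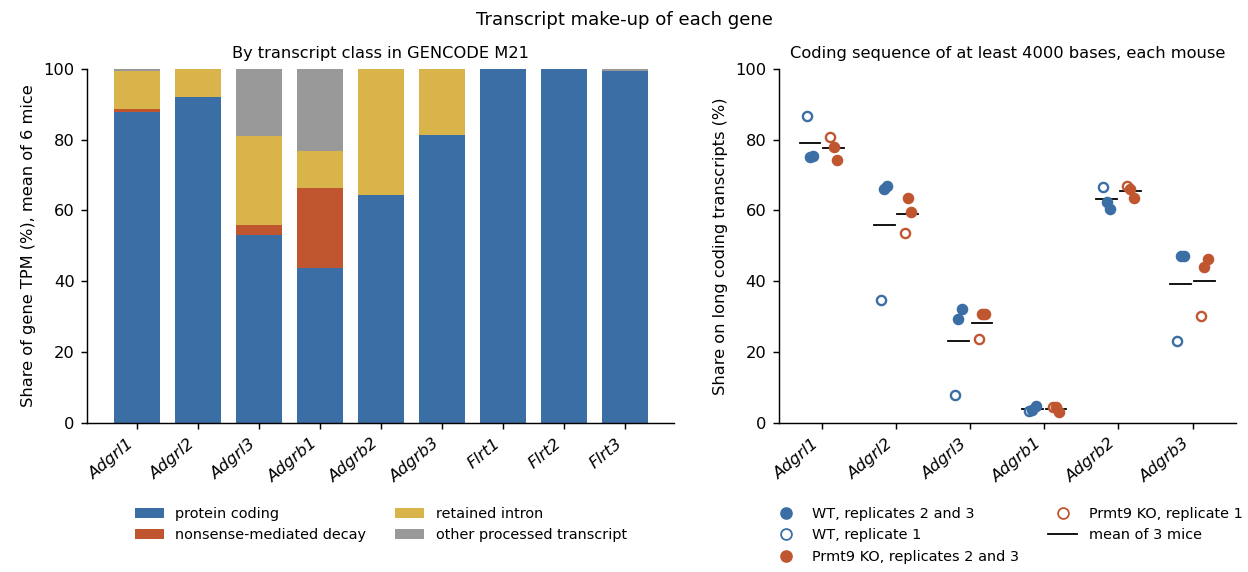
Left, share of each gene's TPM by transcript class, as the mean of 6 mice. Right, share of TPM on transcripts with at least 4000 coding bases in each mouse (blue WT, orange Prmt9 KO, open circles replicate 1, line at the mean of 3 mice), where Adgrb2 stays at or above 60.5%, Adgrb1 stays at or below 4.91%, and the open circles of Adgrl2, Adgrl3 and Adgrb3 lie lowest.

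The share of TPM on transcripts that encode most of a receptor differed between the genes and between the mice. Transcripts with at least 4000 coding bases took 86.5%, 75.2% and 75.4% of Adgrl1 in WT and 80.7%, 78.0% and 74.4% in KO. For Adgrl2 they took 34.9%, 66.1% and 66.9% in WT and 53.7%, 63.6% and 59.4% in KO. For Adgrl3 the shares were 8.05%, 29.5% and 32.2% in WT and 23.7%, 30.8% and 30.7% in KO. In the latter genes replicate 1 was the lowest mouse of each genotype, and in Adgrl1 it was the highest. Adgrb1 was the extreme case, with 3.49%, 3.71% and 4.91% in WT and 4.65%, 4.67% and 3.04% in KO on its long coding transcript, Adgrb1-201. Adgrb3 showed 23.1%, 47.2% and 47.3% in WT and 30.2%, 44.2% and 46.3% in KO, again lowest in replicate 1. Counts in the replicate 1 libraries lay on shorter transcripts on average, and the part of this in the shares here and below was not tested.

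The leading transcript of Adgrl1, Adgrl1-207, lacks the 15-base exon and took 71.6% ± 7.96 of the gene in WT and 70.7% ± 4.45 in KO. Adgrl2 was spread over a short form, Adgrl2-203 with 717 coding bases (25.6% ± 18.3 in WT and 22.2% ± 4.42 in KO, with 46.8% in WT replicate 1), and long forms such as Adgrl2-208 (16.9% ± 4.11 and 18.4% ± 0.187). No long coding transcript of Adgrl3 exceeded 19.7% in any mouse. Adgrb1-202, with 1926 coding bases, took 32.0% ± 1.25 of Adgrb1 in WT and 32.6% ± 1.37 in KO, and Adgrb3-203, with 1956 coding bases, took 38.4% ± 11.7 and 36.9% ± 8.10 of Adgrb3. Flrt1 has a single transcript. Flrt2-201, the form with the longer mRNA, took 74.5% ± 10.5 of Flrt2 in WT and 76.9% ± 7.25 in KO, and Flrt3-202 took 85.3% ± 5.44 and 85.1% ± 2.82 of Flrt3.

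Other coding forms with a share of at least 10% in a genotype were spread over the receptors and both ligands with more than 1 transcript. Adgrb2-208, the leading form of Adgrb2, took 26.4% ± 4.74 in WT and 27.6% ± 0.908 in KO, with Adgrb2-205 (10.2% ± 1.90 and 11.5% ± 1.02) and Adgrb2-207 (8.63% ± 2.53 and 10.01% ± 1.66) below it. In Adgrl2 these were Adgrl2-220, Adgrl2-212 and Adgrl2-214, with means of 10.3% to 13.5%. In Adgrl3 they were Adgrl3-219 (14.1% ± 8.54 and 16.2% ± 4.73) and the shorter Adgrl3-220 (13.02% ± 9.21 and 13.8% ± 5.88). The long forms of Adgrb3, Adgrb3-201 and Adgrb3-207, had means of 19.3% to 20.5%. Flrt2-202 took 25.5% ± 10.5 and 23.05% ± 7.25 of Flrt2, and Flrt3-201 took 13.99% ± 5.04 and 14.01% ± 3.09 of Flrt3. The remaining ones are not annotated as protein-coding. They were the nonsense-mediated decay form Adgrb1-206 (15.5% ± 0.797 and 17.2% ± 2.74), the retained-intron forms Adgrl1-208, Adgrl3-230, Adgrb1-212, Adgrb2-210 and Adgrb3-208 (means of at most 19.4%) and the processed transcripts Adgrl3-229 and Adgrb1-208 (means of 11.2% to 17.5%). For all of these the genotypes overlapped.

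Of the 28 transcripts with a share of at least 10%, 1 had shares that did not overlap between genotypes, where 9.94% of such transcripts of all genes did not. It was Adgrb2-204, a coding form with 4683 coding bases that includes the 99-base exon, at 12.01%, 12.3% and 12.4% in WT and 10.04%, 9.88% and 9.95% in KO. The SD was 0.190 percentage points in WT and 0.0783 in KO, and the difference of the means was -2.27 points. It was -3.91 points when shares were taken of estimated counts and -4.18 points among coding transcripts alone. Without both mice numbered 1, 12 of the 28 did not overlap, against 42.3% of such transcripts.

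In the test of transcript usage, which asks whether transcripts of a gene change against each other, 0 of the 8 genes with more than 1 tested transcript were called at an adjusted Simes p below 0.01, with a background of 0.162% of genes. At the level of single transcripts, 4 of 91 had an unadjusted p below 0.05, against 1.02% of transcripts. They were rare forms. Adgrl3-207, Adgrl3-212 and Adgrl3-213, which encode 3693 to 3849 bases, had shares of 0%, 0.228% and 0.0151%, of 0%, 0.00705% and 0.00437% and of 0%, 0.00719% and 0.00240% in WT, beside 1.34%, 1.62% and 1.02%, 0.379%, 0.559% and 0.197%, and 0.184%, 0.0574% and 0.900% in KO. All 3 were higher in each KO mouse than in any WT mouse, at levels under 1 TPM. The retained-intron form Adgrl1-209 had shares of 0.00701%, 0.109% and 0.803% in WT and 1.94%, 0.426% and 2.10% in KO, which overlapped.

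Leaving out WT replicate 1 brought the usage of Adgrl2 past the threshold (adjusted Simes p 4.4e-06 in edgeR, where 1.01% of genes were called), and leaving out both mice numbered 1 did too (adjusted p 0.00055, background 1.68%). In both fits the change lay in Adgrl2-213, a coding transcript with shares of 2.26%, 0.0192% and 0.0429% in WT and 4.15%, 2.35% and 0.249% in KO. Its share in WT replicate 1 was about that of KO replicate 2, and its usage was not called with all 6 mice (adjusted p 1). Without both mice numbered 1, Adgrl3 had an adjusted Simes p of 0.0177 in edgeR and was not called. Its transcript Adgrl3-204 gave a log2 change in usage of -3.69 in that fit (transcript-level adjusted p 0.0039 in edgeR).

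Alternative exons were described by the percent spliced in (PSI), here the fraction of TPM on transcripts that include an exon among those that include or skip it. The 9 genes held 50 annotated events, of which 39 in 7 genes passed the limits on level and PSI. These were 30 cassette exons, 5 alternative 5′ splice sites, 3 alternative 3′ splice sites and 1 retained intron. At distinct positions there were 27 cassette exons, and 7 of them (25.9%) were microexons of at most 27 bases, compared with 5.80% of 7694 cassette exons over all genes. A length divisible by 3, which keeps the reading frame, was found in 20 of 27 (74.1%) and in 50.7% of all. Events of a gene share transcripts and are not independent.

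The short exon at the domain joint was mostly skipped in Adgrl1 and mostly included in its relatives. Pooled over both annotated flanks, PSI of the Adgrl1 exon was 0.102, 0.210 and 0.205 in WT and 0.1003, 0.199 and 0.183 in KO. The matching 12-base exon of Adgrl2 had a PSI of 0.703, 0.754 and 0.744 in WT and 0.768, 0.744 and 0.767 in KO. The 15-base exon of Adgrl3 had a PSI of 0.667, 0.814 and 0.806 in WT and 0.864, 0.796 and 0.791 in KO. Every Adgrl1 value was below every value of Adgrl2 and Adgrl3, whose ranges overlapped, and in each gene the genotypes overlapped. At its main flanks, the transcripts with the Adgrl1 exon gave a PSI of 0.063 to 0.114, and at the other flanks, whose transcripts with the exon have no annotated coding sequence there, 0.827 to 0.971.

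**Figure D4:**
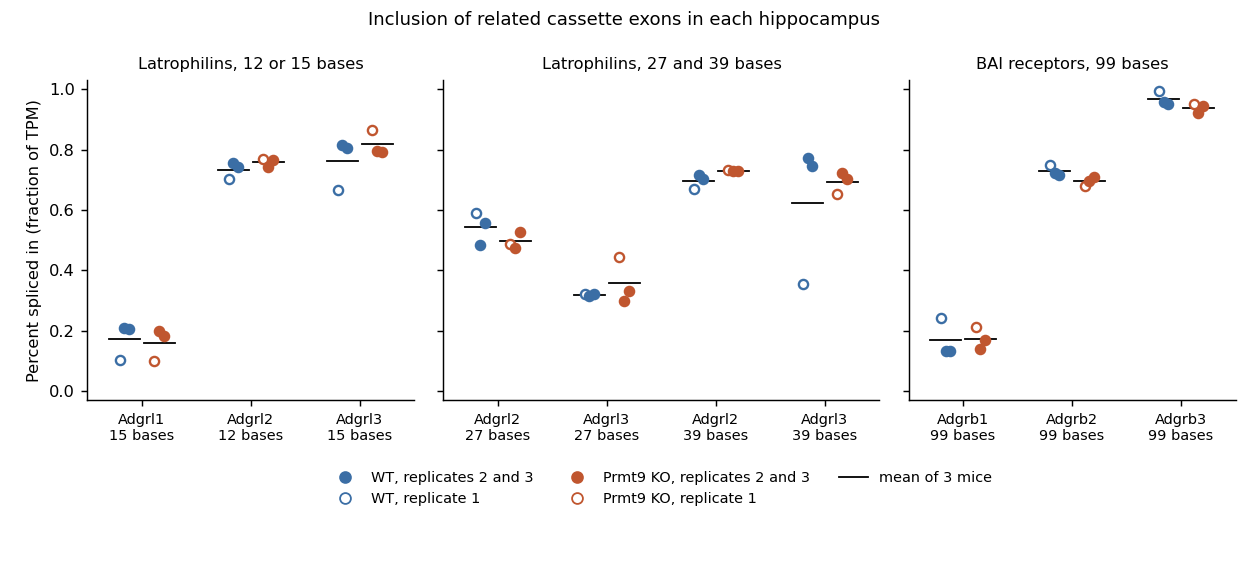
PSI, as a fraction of TPM, of related cassette exons in each mouse (blue WT, orange Prmt9 KO, open circles replicate 1, line at the mean of 3 mice). The 15-base exon of Adgrl1 (pooled over its flanks) stays at or below 0.210 while its counterparts in Adgrl2 and Adgrl3 stay at or above 0.667, and the 99-base exon rises from Adgrb1 to Adgrb2 to Adgrb3.

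The plot of related exons places the other pairs beside these. The 27-base exon had a PSI of 0.589, 0.486 and 0.556 in WT and 0.489, 0.474 and 0.527 in KO for Adgrl2, and of 0.322, 0.317 and 0.322 in WT and 0.445, 0.299 and 0.331 in KO for Adgrl3. The Adgrl2 value counts only transcripts that carry the neighbouring 45-base exon, and transcripts that skip both exons are left out. The 27-base values of Adgrl2 and Adgrl3 are therefore not set against each other. The 39-base exon was included at 0.671, 0.716 and 0.702 in WT and 0.732, 0.730 and 0.730 in KO for Adgrl2, with no overlap between the genotypes. For Adgrl3 the same exon was included at 0.355, 0.773 and 0.746 in WT and 0.653, 0.724 and 0.701 in KO, and WT replicate 1 lay far below the rest. Adgrl1 carries a 39-base counterpart of this exon (69.2% identical to that of Adgrl2), for which no cassette event passed the limits. The microexon of 18 bases, 83.3% identical between Adgrl2 and Adgrl3, had PSI of 0.036 to 0.176 and 0.033 to 0.123. In Adgrl3 a longer form of 52 bases with the same start had a PSI of 0.229 to 0.358 at the same flanks. Its transcripts are not counted in the 18-base value, so the 18 bases themselves were included more often than that value shows.

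In the BAI family the 99-base exon was included at 0.243, 0.133 and 0.135 in WT and 0.212, 0.141 and 0.171 in KO for Adgrb1. For Adgrb2 it was included at 0.749, 0.721 and 0.716 in WT and 0.681, 0.697 and 0.710 in KO. For Adgrb3 it was included at 0.993, 0.956 and 0.9501 in WT and 0.9494, 0.922 and 0.946 in KO. In Adgrb2 and, by the narrowest margin, in Adgrb3 each KO mouse had a lower PSI than each WT mouse, with differences of the means of -0.033 and -0.027, while in Adgrb1 the genotypes overlapped. Adgrb2 has a further form of this region, the transcript Adgrb2-205, that carries a 63-base exon in place of the 99-base one (PSI 0.354 to 0.447). In Adgrb2 the PSI of each of these exons is taken against transcripts that skip both and leaves out the other form. Both values are therefore higher than a fraction over all forms would be. A pair of 165-base exons of Adgrb2, each encoding a thrombospondin repeat, were skipped by some transcripts, with PSI of 0.364 to 0.439 and of 0.631 to 0.784. Their closest exons in Adgrb1 were 74.7% and 70.5% identical, and no cassette event at those exons passed the limits.

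An event was called where limma gave an adjusted p no higher than 0.01 and PSI differed by 0.05 or more. By that rule 0 of 39 were called (background 0.00%), and 1 had an unadjusted p below 0.05, against 3.40% of events. It was an 82-base exon of Adgrl2 in the rarely used Adgrl2-206, with a PSI of 0, 0.030 and 0.014 in WT and 0.060, 0.059 and 0.125 in KO. PSI did not overlap between the genotypes in 8 of 39 events, beside 11.0% of all events. They included the 82-base exon, the 39-base Adgrl2 exon and the 99-base exons of Adgrb2 and Adgrb3. Also among them were a 129-base exon of Adgrl2 (0.637 ± 0.0535 in WT and 0.693 ± 0.0171 in KO) and a 3′ splice site of Adgrb1 (0.924 ± 0.00351 and 0.943 ± 0.0138). The others were the 18-base exon of Adgrl3 (0.04997 ± 0.0151 and 0.0867 ± 0.0317) and the 5′ splice site that extends it to 52 bases (0.878 ± 0.0528 and 0.828 ± 0.00491). The same transcripts carry the 18-base form in both, so these events are not separate. Without both mice numbered 1, 20 of 39 did not overlap, against 43.6% of events. PSI here rests on annotated transcripts, so an exon is seen only as far as reads assign to them, and no junction reads were used. The paper counted the reads that support each form and reported altered splicing events in Prmt9 KO hippocampus. A count of 0 by the rule used here therefore does not show that splicing was unchanged.

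Partners of the receptors and ligands showed no call. All 36 listed partners were tested (edgeR, adjusted over all genes). Of them 0 were called, against 0.00% of all genes, and 0 had an unadjusted p below 0.05, against 1.23%. Their median log2 fold change was -0.05. The range was -0.45 (C1ql2) to 0.37 (C1ql4), but C1ql4 stood at only 0.0311 to 0.175 TPM and its value had an SE of 0.71. The teneurins, which bind latrophilins across the synapse, had a median of 0.16 over 4 genes, and Tenm2 was the most abundant at 36.0 ± 11.7 TPM in WT and 41.6 ± 1.596 TPM in KO. WT replicate 1 was the lowest mouse for all 4 (22.6 TPM for Tenm2, against 40.03 to 43.6 TPM in the other 5), and the median was 0.06 without it and -0.05 without both mice numbered 1. The UNC5 receptors, which bind FLRT proteins and netrin, had a median of -0.09, and Unc5a led with 71.9 ± 23.5 and 68.7 ± 12.1 TPM. The 3 Nogo receptors, partners of Adgrb1, all had values below 0 with a median of -0.15, and Rtn4rl2 led with 50.5 ± 2.81 and 45.4 ± 2.70 TPM.

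**Figure D5:**
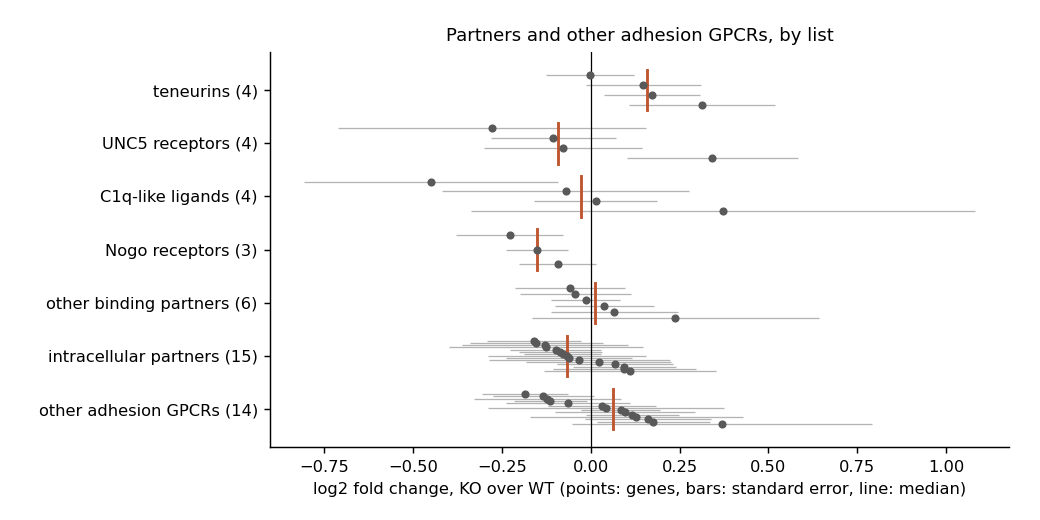
Log2 fold change of KO over WT for 36 partner genes in 6 lists and 14 other adhesion G protein-coupled receptors (points, with standard errors as bars and the number of genes in brackets) and the median of each list (orange line). Medians run from -0.15 for the Nogo receptors to 0.16 for the teneurins.

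The C1q-like ligands, secreted partners of Adgrb3, had a median of -0.03 over 4 genes. Their most abundant gene in WT, C1ql2, which is also a marker of dentate granule cells, stood at 37.6 ± 11.1 TPM in WT and 28.8 ± 13.4 TPM in KO, with a log2 fold change of -0.45 ± 0.36 (SE). The dentate granule cell markers summed to 89.9 to 151 TPM in WT and 77.6 to 151 TPM in KO, and their part in the C1ql2 value was not tested. The other binding partners had a median of 0.01 over 6 genes. The 15 intracellular partners, among them the engulfment adaptor Elmo1, the scaffolds of the Shank family and the synaptic scaffold Dlg4 (480 ± 95.5 and 457 ± 62.3 TPM), had a median of -0.07. The 14 other adhesion G protein-coupled receptors, which are relatives and not partners, had a median of 0.06. Of them 0 were called and 0 had an unadjusted p below 0.05 (edgeR), against 0.00% and 1.23% of all genes. Celsr2 was the most abundant of them in WT, at 75.2 ± 13.2 TPM beside 72.9 ± 1.74 TPM in KO, and Adgrg1 in KO, at 73.9 ± 3.37 TPM in WT and 86.5 ± 2.32 TPM in KO.

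Each of the 9 genes was also matched to the gene whose levels followed it most closely over the 6 mice, as a description of libraries among which the mice numbered 1 stood apart. By Pearson's r of log2 CPM this gene was Jakmip1 for Adgrl1 (r = 0.999), Scmh1 for Adgrl2 (r = 0.991), Grin2b for Adgrl3 (r = 0.9996) and Ubtf for Adgrb2 (r = 0.996). It was Fancd2 for Adgrb3 (r = 0.999), Cluh for Flrt1 (r = 0.997), Lig3 for Flrt2 (r = 0.987), Thsd4 for Flrt3 (r = 0.999) and, for Adgrb1, Gm47103 (r = 0.9996), a gene near 0.829 CPM.

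Some levels share sequence with a neighbour. Exons of Adgrl1 overlap those of Gm10644 on the opposite strand over 1107 of 8587 bases, and exons of Adgrl3 overlap the antisense gene Gm16054 over 1582 of 17750 bases. The library kit keeps strand, but whether the quantification used it is not given in the sources used here. Adgrl1 lies on chromosome 8, 6.32 Mb from the end of Prmt9.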

How the data were processed

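Poly(A)-selected, stranded RNA libraries of 3 WT and 3 Prmt9 KO hippocampi were sequenced as paired ends. The authors quantified transcripts with kallisto (version 0.46.0 in the submitters' processing notes) on GRCm38 and deposited estimated counts and TPM per transcript, and summed TPM per gene in a gene table. All 107 member transcripts matched GENCODE M21. The members and all lists were chosen with earlier results of these data known.

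From the deposited estimated counts, summed per gene and rounded, genes were tested with edgeR 4.0.16 (TMM, quasi-likelihood F test) on R 4.3.3, with Benjamini-Hochberg adjustment over 20335 genes. Genes were called where the fold exceeded 1.5 and the adjusted p lay under 0.01. For transcript usage, diffSpliceDGE of edgeR gave a Simes p per gene (adjusted p below 0.01). Splicing events were built from annotated exons and tested with limma 3.58.1 on log2 ratios of including to excluding TPM, each plus 0.1. Events with 1 TPM or more in all mice and with a mean PSI of 0.05 to 0.95 in a genotype were kept, and were called where PSI differed by 0.05 or more with an adjusted p no higher than 0.01. Shares are TPM of a transcript over TPM of its gene. Exons were aligned with Biopython 1.88. The tests were checked on simulated data.

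Named were all 9 members, transcripts with a share of at least 10% or an unadjusted usage p below 0.05, events whose genotypes did not overlap, microexons of at most 27 bases, and the most abundant gene of each partner list in WT, of which 1 is not reported here. Other results were chosen after their values were seen, among them the related exons, the partners with the lowest and highest fold change, and the usage of Adgrl2-213.

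Same-numbered WT and KO libraries deviated together from their genotype means (r = 0.55, 0.42 and 0.38 over genes, each above 0.1), which met the limit set for treating the numbers as pairs. WT replicate 2 with KO replicate 3 (0.41) and WT replicate 3 with KO replicate 2 (0.40) did so as well, so these values set replicates 1 apart and do not tell 2 from 3. No pair of replicates agreed within sampling noise. Counting error is small at this depth, and the spread between 3 mice limits the precision. DESeq2 1.42.0, limma on log2(TPM + 1) and log2(TPM + 0.1), other filters, a replicate block, a batch term and leaving out mice were tried as alternatives.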

Additional observations from a re-analysis of the deposited data

How the results depend on the processing

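No gene was called in the main fit (edgeR, 251 genes at an unadjusted p below 0.05), and the count was 2 with DESeq2, 1 when replicates 1 had a batch term and 1 without both of them. Over all genes, 22 were called for transcript usage. The count was 12 with the replicate block, 3 with limma, 12 with the gene-level F test, 1 with at least 10 counts in every mouse, 52 with the batch term, 230 without both mice numbered 1 and 6 to 139 when 1 mouse was left out, the highest without WT replicate 1. The replicate block left the count of genes called at 0 and of events at 0, and changed no call of the 9 genes. Of the 28 larger transcript shares, 1 did not overlap between genotypes. The count was 12 without both mice numbered 1 and 1 to 10 leaving out 1 mouse, the highest without WT replicate 1. The log2 fold change of Adgrl1 (-0.06) turned to 0.0399 in limma with 1 TPM added and to 0.0403 with 0.1. That of Adgrl3 (0.01) turned to -0.0961 and -0.0979 there, to -0.0673 without both mice numbered 1, and ran from -0.0892 to 0.0677 leaving out 1 mouse. That of Adgrb3 (0.08) turned to -0.0209 without both and ran from -0.0809 to 0.171 leaving out 1 mouse, and that of Flrt2 (0.03) turned to -0.0708 and ran from -0.0645 to 0.0788. The cause of these turns was not tested. Events called stayed at 0 under all settings tried. For single genes, transcripts and events, 12 alternative values reversed, 2 moved (both the share of Adgrb2-204) and the other 440 kept the direction or lay within 1 SD of the main value.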
